A study of Homo sapiens with 11 samples.

Results

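The MYC, MAX and MXD network is a group of basic helix-loop-helix leucine zipper transcription factors that compete for E-box DNA. The genes were chosen by name from the deposited gene table, as MYC, MYCL, MAX, MXI1, MXD1, MXD3, MXD4, MNT, MLX and MGA, and these are 10 of its 60676 genes. All 10 had enough reads to be among the 19981 genes tested. They were measured by RNA-seq in RWPE1 cells, an immortalized, non-tumorigenic line of human prostate epithelium grown in serum-free keratinocyte medium. The cells were either left untreated in normoxia (0 h, n = 3) or kept at 1% oxygen in medium with 10 mM HEPES buffer for 6 h (n = 3), 12 h (n = 3) or 24 h (n = 2). A further 24 h replicate of the study is not used here. The labels name HEPES only for the medium of hypoxic cells, so hypoxia and the buffer cannot be told apart. The labels do not say whether replicates came from separate cultures, and p-values therefore measure only the spread between these libraries.

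MYC and its relative MYCL bind DNA as dimers with MAX and activate genes of ribosome production, nucleotide synthesis and cell growth. MXI1, MXD1, MXD3 and MXD4, the MXD proteins, take the place of MYC on MAX and recruit SIN3 and histone deacetylases, which repress the same kind of gene. MNT is a widely expressed repressor that pairs with MAX or MLX, MLX also pairs with the glucose-sensing factors MLXIP and MLXIPL, and MGA is a very large protein that joins MAX to a Polycomb repressor complex. In other cells MXI1 is a known target of the hypoxia-inducible factors (HIF), which are stabilised when oxygen falls.

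E-box letters in the promoters were searched first, since the network proteins bind CACGTG and HIF binds a core of RCGTG, searched here as ACGTG and GCGTG. RefSeq promoter windows of GRCh38.p14, from 250 bases before to 50 bases after a start site, were found for 9 of the members, with 14 windows in all, and for MYC none was used. On either strand, CACGTG stood in 3 of these windows, those of MXD4, MNT and MLX, and in 7.26% of all 35116 windows. ACGTG, which is contained in CACGTG, stood in 6 of the 14 windows and in 21.4% of all windows, and GCGTG in 8 of the 14 and in 36.5% of all windows. By member, ACGTG stood in a window of 6 and GCGTG in a window of 5 of the 9, since genes such as MGA have several windows. The shares of all windows do not apply to these counts by member. The bases before the start sites of MXI1, MXD4, MNT and MLX are printed from 5′ to 3′ on the strand of the gene, because these members are the HIF target, the E-box holding MXD gene and the repressor and partner genes whose transcripts moved in opposite directions by 24 h. Bases inside annotated exons were left out, so the MNT sequence ends at position -45 and the MLX sequence at position -29 from the start site. Capitals mark the CACGTG E-box, and in MXI1, where the window belongs to 1 of 3 annotated starts, they mark CACGT, which is ACGTG on the other strand. This MXI1 window was printed because it held ACGTG, which the windows of the other MXI1 starts did not. Matches to GCGTG, such as that at position -127 in MXI1, are not marked.
MXI1, chr10:110209981-110210230, plus strand: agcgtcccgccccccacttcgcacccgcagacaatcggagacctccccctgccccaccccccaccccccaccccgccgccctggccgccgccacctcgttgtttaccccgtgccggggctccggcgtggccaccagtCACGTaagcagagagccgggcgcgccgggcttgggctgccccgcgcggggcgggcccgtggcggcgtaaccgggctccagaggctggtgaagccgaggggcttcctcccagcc
MXD4, chr4:2262110-2262359, minus strand: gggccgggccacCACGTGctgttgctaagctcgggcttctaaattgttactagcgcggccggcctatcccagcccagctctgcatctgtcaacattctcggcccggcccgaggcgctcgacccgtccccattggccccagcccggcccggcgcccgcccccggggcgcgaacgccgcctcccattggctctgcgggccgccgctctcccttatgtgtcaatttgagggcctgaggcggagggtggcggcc
MNT, chr17:2401105-2401310, minus strand: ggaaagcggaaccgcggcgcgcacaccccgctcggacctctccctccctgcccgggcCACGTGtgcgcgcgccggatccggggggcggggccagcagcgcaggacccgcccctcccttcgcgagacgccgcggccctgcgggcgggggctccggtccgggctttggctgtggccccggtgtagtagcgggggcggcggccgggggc
MLX, chr17:42566850-42567071, plus strand: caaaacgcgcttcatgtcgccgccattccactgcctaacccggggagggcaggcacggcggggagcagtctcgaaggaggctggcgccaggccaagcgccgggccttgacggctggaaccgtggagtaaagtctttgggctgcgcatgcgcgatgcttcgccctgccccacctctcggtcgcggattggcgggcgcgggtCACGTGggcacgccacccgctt
Counted from the start site, the E-box began at position -238 in MXD4, -193 in MNT and -50 in MLX, and the MXI1 match began at position -113. These matches describe the letters only, and no binding was measured.

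The 11 libraries held 27496009 to 49488345 counts and 24754 to 30649 detected genes. Levels are given as CPM, a gene's share of the reads of its library, scaled with TMM factors, which ran from 1.29 to 1.32 at 0 h down to 0.851 and 0.539 in the 24 h libraries, so all levels are relative to the rest of each library. The 24 h replicates stood apart from each other, with a chi-square per gene of 235.8 between them against 3.083 to 68.53 between other replicates. All 5 HIF targets used to check the treatment (CA9, EGLN3, PDK1, BNIP3 and ADM) were higher at every time, as were 14.8% of all tested genes. Their medians were 3.09, 4.15 and 4.73 on the log2 scale at 6, 12 and 24 h. EGLN3, an oxygen-sensing prolyl hydroxylase, rose by 6.23, 6.45 and 6.77 at 6, 12 and 24 h, the pH regulator CA9 by 3.17, 4.40 and 5.68, and the peptide hormone ADM by 3.09, 4.15 and 4.73. The basal prostate markers KRT5, KRT14, TP63 and ITGA6 summed to 7670 to 10500 CPM at 0 h and 16100 to 20800 CPM at 24 h, and the luminal markers KRT8, KRT18, KRT19, EPCAM and CDH1 to 1070 to 1140 and 1840 to 3090 CPM. The secretory luminal marker KLK3 had 0 counts in every library. The fibroblast sum of 27.9 to 60.5 CPM came from COL1A1, since COL3A1 and DCN had at most 3 counts, and the endothelial and leukocyte sums stayed at or below 0.148 and 0.347 CPM. On the TPM scale, set by each library's own composition, the basal sum was 6228 to 8311 at 0 h and 7969 and 5408 at 24 h, and the luminal sum 979 to 1090 and 930 and 758, so the direction of these marker sums at 24 h depended on the scaling. The part of these markers in the results was not tested. In such bulk libraries, fewer cells of a kind and less RNA per cell cannot be told apart.

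Compared per kilobase of exons, MYC was the most abundant network transcript in normoxia at 15.5 ± 1.56 CPM per kb (SD, n = 3), and no other member overlapped it. MLX followed at 8.24 ± 0.294 and MXI1 at 7.77 ± 0.318, whose ranges overlapped. MAX, the shared partner, and MXD1 were level at 5.92 ± 0.311 and 5.91 ± 0.162, and MGA at 4.13 ± 0.206 overlapped MNT at 4.0 ± 0.275 (all CPM per kb). MXD3 (2.85 ± 0.408) and MXD4 (2.71 ± 0.399) also overlapped, and MYCL was the lowest at 1.47 ± 0.0772 CPM per kb. The upper part of this order had changed by 24 h, when MYC at 24.8 ± 4.69 and MXI1 at 24.6 ± 6.08 CPM per kb (SD, n = 2) overlapped and MLX at 19.0 ± 3.73 overlapped MXI1. MYCL remained the lowest, at 0.178 ± 0.105 CPM per kb. The normoxic order depended on the length used. With the longest annotated transcript in place of all exons, on the TPM scale, MYC stayed highest at 65.86 and MYCL lowest at 5.366. MAX at 30.37 was then above MXD1 at 17.42, and MNT at 18.3 above MGA at 14.73. MXD3 (13.7 to 17.88) did not overlap MXD4 (10.01 to 13.45) on that measure.

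**Figure D1:**
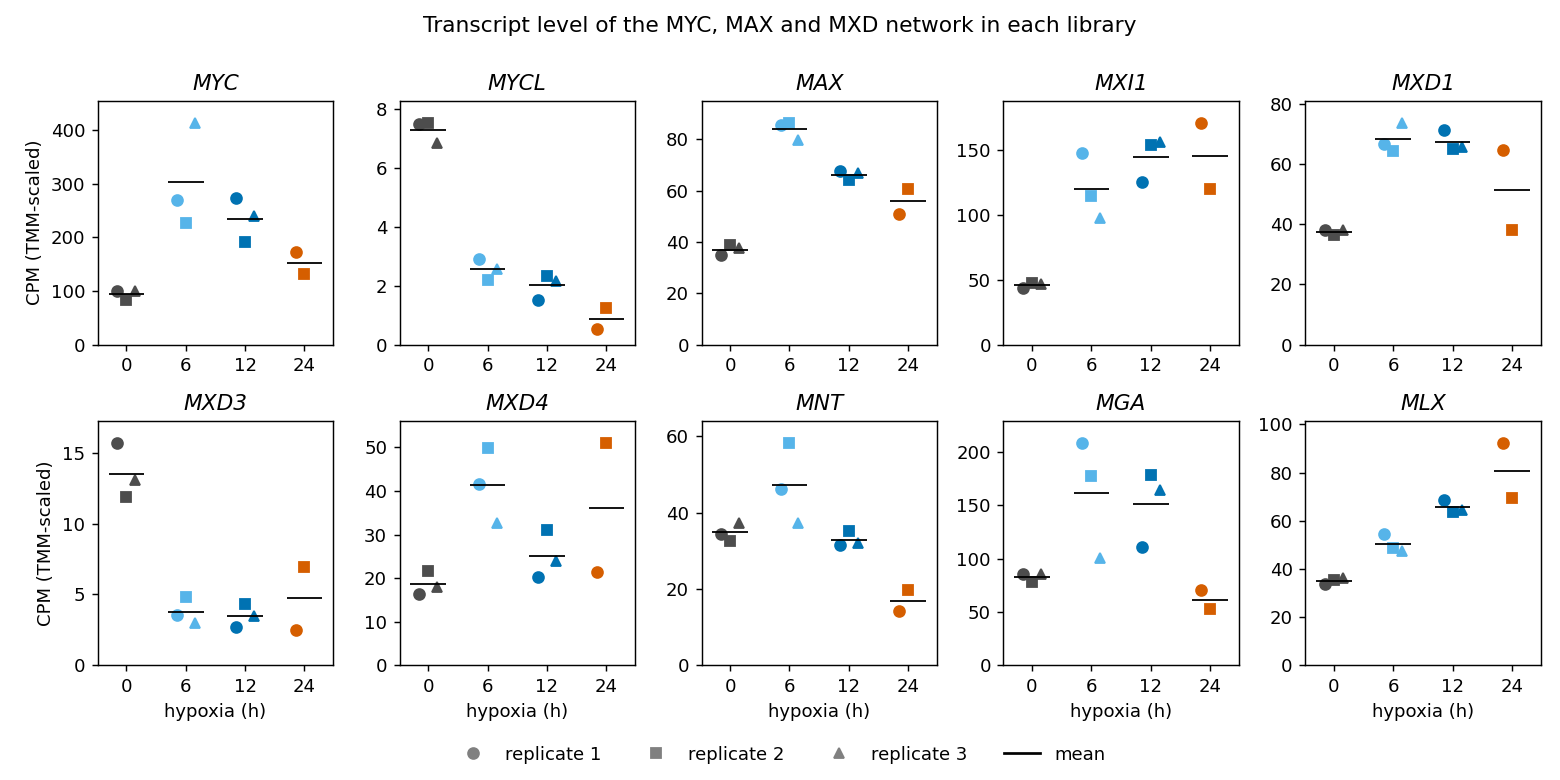
Level of each of the 10 network genes in every library, in TMM-scaled CPM on axes that start at 0, against hours of hypoxia. Symbols mark replicates 1 to 3 and lines the mean of each time, and MYC goes from 83.7 to 101 CPM at 0 h to 228 to 414 CPM at 6 h while MYCL and MXD3 are lower at every hypoxic time.

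The comparisons of each time with 0 h asked how the network changed in hypoxia, and they share the 0 h libraries. Differences were called at a Benjamini-Hochberg adjusted p under 0.05 in edgeR's quasi-likelihood test over all tested genes, with n = 3 against 3 libraries, or 2 against 3 at 24 h. At 6 h all 10 members were called, 8 higher and 2 lower, where 52.8% of all tested genes were called, 25.1% higher and 27.7% lower. At 12 h 8 were called, 6 higher and 2 lower, against 51.2% of all genes (24.2% higher and 27.1% lower), and at 24 h 8 were called, 5 higher and 3 lower, against 61.2% (29.9% higher and 31.3% lower). The hypoxic and normoxic libraries did not overlap for 9, 8 and 8 of the 10 members at 6, 12 and 24 h, beside 69.6%, 72.3% and 73% of all tested genes. MYC, MAX, MXI1 and MLX were higher at all 3 times, as were 14.8% of tested genes, and MYCL and MXD3 lower at all 3, as were 17.9%. The median log2 fold change of the 10 genes was 0.91, 0.84 and 0.53 at 6, 12 and 24 h, where the median of all tested genes was 0.00, -0.03 and -0.06. An exact two-sided permutation test of log2 CPM with 3 against 3 libraries goes no lower than 0.1, and the 24 h libraries were not tested in this way. Scaled by library size alone, which put the median of all genes at -0.32, -0.50 and -0.97 at the 3 times, the 6 h calls of MXD1, MNT, MLX and MGA, the 12 h calls of MXD1, MLX and MGA and the 24 h call of MLX were lost, and MYC, MAX, MXD1 and MXD4 at 24 h turned to values between -0.38 and -0.10.

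**Figure D2:**
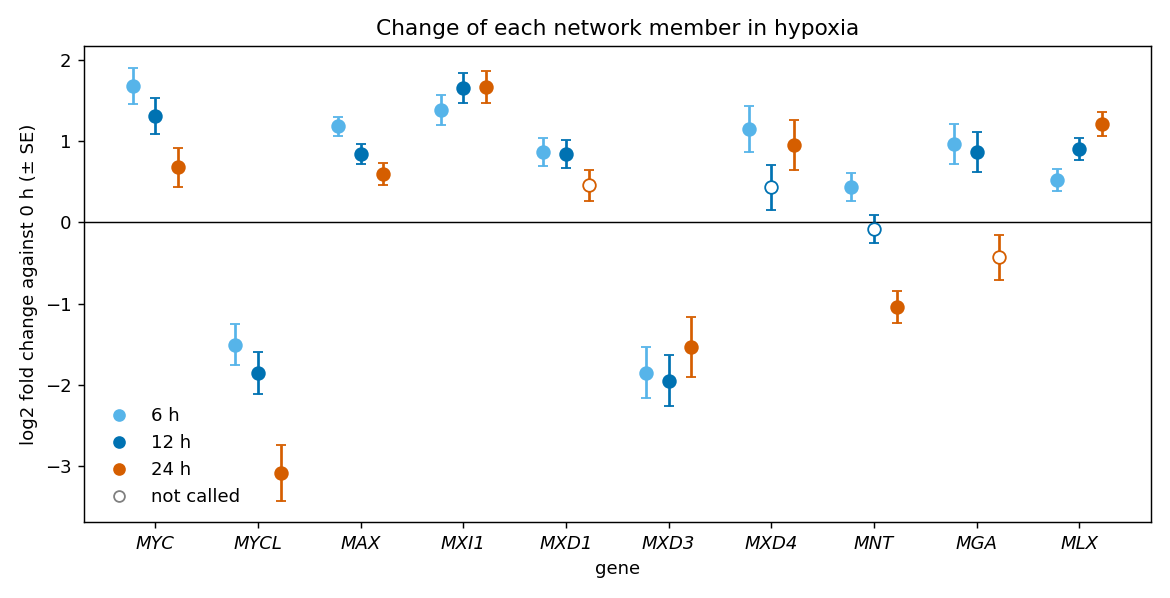
Log2 fold change of each member against 0 h at 6, 12 and 24 h of hypoxia, with bars of 1 SE from edgeR, and open symbols where the adjusted p was 0.05 or more. MYCL and MXD3 lie below 0 at all 3 times, MXI1 between 1.38 and 1.66, and MNT goes from 0.44 at 6 h to -1.04 at 24 h.

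Among the activators, MYC and MYCL moved in opposite directions. Gene positions are given on GRCh38. MYC, the main growth-promoting member, was at 101, 83.7 and 99.8 CPM in normoxic replicates 1 to 3. It was at 269, 228 and 414 CPM at 6 h, at 273, 191 and 240 CPM at 12 h and at 172 and 131 CPM at 24 h. Every hypoxic library lay above every normoxic one, with 6 h replicate 3 the highest of all. On the TPM scale the 24 h libraries were at 49.79 and 18.23, against 42.79 to 50.94 in normoxia. MYC rose by 1.68 on the log2 scale at 6 h (SE 0.22, adjusted p = 6.51e-05), by 1.31 at 12 h (SE 0.22, adjusted p = 0.000445) and by 0.68 at 24 h (SE 0.24, adjusted p = 0.0277). The level then fell within hypoxia, by 1.00 from 6 to 24 h (SE 0.25, adjusted p = 0.00717), with the 24 h libraries below all 6 h libraries. The 24 h call was lost without 24 h replicate 1 (0.41, adjusted p = 0.202) and without any 1 of the 0 h replicates (adjusted p = 0.0505 to 0.0941), and over all alternatives its adjusted p ran from 0.00469 to 0.591.

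MYCL (chr1:39895428-39902256, minus strand), a tissue-restricted MYC paralogue, was at 7.49, 7.54 and 6.85 CPM in normoxia. Its hypoxic values were 2.90, 2.21 and 2.58 CPM at 6 h, 1.52, 2.34 and 2.17 CPM at 12 h and 0.513 and 1.25 CPM at 24 h. Every hypoxic library was below every normoxic one, and the 24 h libraries were the lowest, with 12 and 23 counts. The fall was 1.51 at 6 h (SE 0.25, adjusted p = 0.000327), 1.85 at 12 h (SE 0.26, adjusted p = 0.000111) and 3.08 at 24 h (SE 0.34, adjusted p = 1.29e-05) on the log2 scale. A further fall of 1.57 from 6 to 24 h was called (adjusted p = 0.00329), and so was that of 1.23 from 12 to 24 h (adjusted p = 0.0203). The latter call was lost without 12 h replicate 2 (adjusted p = 0.0633), 12 h replicate 3 (0.0603) or 24 h replicate 1 (-0.72, adjusted p = 0.0971), and the value was -1.99 without 24 h replicate 2. Over the alternatives its adjusted p ran from 0.00226 to 0.287. Per exonic base, MYCL stood at 0.0845 to 0.111 of MYC in normoxia and at 0.00368 and 0.0118 of it at 24 h.

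MAX (chr14:65006174-65102695, minus strand), a shared partner of MYC and the MXD proteins, was at 34.9, 38.7 and 37.5 CPM in normoxia. It was at 85.6, 86.5 and 79.7 CPM at 6 h, 67.7, 64.2 and 66.8 CPM at 12 h and 51.0 and 60.8 CPM at 24 h. Its levels were highest at 6 h and lower at each later time, with no overlap between neighbouring times. On the TPM scale both 24 h libraries, at 14.44 and 8.249, were below the 17.22 to 19.3 of normoxia. The rise was 1.18 at 6 h (SE 0.12, adjusted p = 9.48e-06), 0.84 at 12 h (SE 0.12, adjusted p = 0.000141) and 0.59 at 24 h (SE 0.13, adjusted p = 0.00198), and the fall from 6 to 24 h was 0.59 (adjusted p = 0.00457). MAX shares 16.08% of its exonic bases with genes on the opposite strand, FNTB among them.

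Of the antagonists, MXI1 (chr10:110207605-110287365, plus strand) had the largest rise at each time. This MXD repressor was at 43.9, 47.5 and 46.4 CPM in normoxia, then at 147, 114 and 97.7 CPM at 6 h, 125, 153 and 156 CPM at 12 h and 171 and 120.1 CPM at 24 h. In TMM-scaled CPM the hypoxic libraries lay far above the normoxic ones and overlapped each other across times. By library size alone, 24 h replicate 2 was at 64.67 CPM, against 57.65 to 62.86 CPM in normoxia. On the TPM scale it was at 17.26, below the 22.95 to 25.13 of normoxia. MXI1 rose by 1.38 at 6 h (SE 0.18, adjusted p = 5.77e-05), by 1.66 at 12 h (SE 0.18, adjusted p = 2.24e-05) and by 1.66 at 24 h (SE 0.20, adjusted p = 1.94e-05), and no difference between hypoxic times was called for it. These 3 calls and their signs were kept in all 21 alternative analyses.

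MXD1 (chr2:69897688-69942945, plus strand), the MXD protein best known from differentiating cells, rose less. It was at 38.2, 36.4 and 38.1 CPM in normoxia, 66.8, 64.5 and 73.8 CPM at 6 h, 71.3, 64.9 and 65.6 CPM at 12 h and 64.8 and 38.0 CPM at 24 h. The libraries at 6 and 12 h were all above normoxia, while at 24 h replicate 2 fell within the normoxic range. The rise was called at 6 h (0.87, SE 0.17, adjusted p = 0.00103) and at 12 h (0.84, SE 0.17, adjusted p = 0.00143) and not at 24 h (0.46, SE 0.19, adjusted p = 0.0505). Without 24 h replicate 2 the value at 24 h was 0.77 (adjusted p = 0.000216) and without 24 h replicate 1 it was -0.04, and its adjusted p over the alternatives ran from 0.000216 to 0.821.

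MXD3 (chr5:177301461-177312757, minus strand), an MXD protein expressed in dividing cells, fell instead. Its normoxic values were 15.7, 11.9 and 13.1 CPM, against 3.52, 4.83 and 2.98 CPM at 6 h, 2.71, 4.36 and 3.45 CPM at 12 h and 2.52 and 6.92 CPM at 24 h. No hypoxic library overlapped normoxia. MXD3 fell by 1.85 at 6 h (SE 0.32, adjusted p = 0.000395), by 1.95 at 12 h (SE 0.32, adjusted p = 0.000351) and by 1.54 at 24 h (SE 0.37, adjusted p = 0.00317). At 24 h the value was -2.44 without 24 h replicate 2 and -1.02 without 24 h replicate 1. It shares 24.2% of its exonic bases with PRELID1 on the opposite strand and 19.52% with RAB24 on its own strand, so reads of these genes may be divided between them, and its values are uncertain to that extent.

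MXD4 (chr4:2247432-2262109, minus strand), the remaining MXD gene, was called higher at 6 and 24 h. It was at 16.3, 21.6 and 18.0 CPM in normoxia, 41.6, 49.9 and 32.7 CPM at 6 h, 20.4, 31.1 and 24.0 CPM at 12 h and 21.3 and 50.9 CPM at 24 h. The 6 h libraries were above all others but 24 h replicate 2, and at 12 and 24 h the lower library fell within the normoxic range. On the TPM scale both 24 h libraries, at 5.493 and 6.291, were below the 7.315 to 9.835 of normoxia. MXD4 rose by 1.15 at 6 h (SE 0.28, adjusted p = 0.00418), its value at 12 h was 0.43 (SE 0.28, adjusted p = 0.212), and the rise of 0.95 at 24 h was called (SE 0.31, adjusted p = 0.0170). That last call was lost without 24 h replicate 2 (0.17, adjusted p = 0.582) and without 0 h replicate 1 (adjusted p = 0.0587), within a range over the alternatives of 0.000238 to 0.751.

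MNT (chr17:2384073-2401104, minus strand), the broadly expressed antagonist, ended below normoxia. It was at 34.4, 32.7 and 37.4 CPM at 0 h, 46.3, 58.1 and 37.3 CPM at 6 h, 31.6, 35.1 and 31.9 CPM at 12 h and 14.3 and 19.6 CPM at 24 h. The 24 h libraries were the lowest of all, and 6 h replicate 3 lay within the normoxic range. The rise of 0.44 at 6 h was at the threshold (SE 0.17, adjusted p = 0.0472) and lost its call under 8 of the 11 omissions of a library (adjusted p = 0.0573 to 0.218), over a range of 0.00206 to 0.605 in all alternatives. At 12 h the value was -0.08 (adjusted p = 0.707), and at 24 h MNT fell by 1.04 (SE 0.20, adjusted p = 0.00075). From 6 to 24 h it fell by 1.48 (SE 0.21, adjusted p = 0.000235) and from 12 to 24 h by 0.96 (adjusted p = 0.00564). Of its exonic bases 12.24% overlap a gene on the opposite strand.

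MLX (chr17:42567072-42573239, plus strand), which pairs with MNT and with the Mondo proteins, was called higher at all 3 times. It was at 33.7, 35.5 and 36 CPM in normoxia, 54.5, 48.8 and 47.4 CPM at 6 h, 68.6, 63.8 and 64.5 CPM at 12 h and 92.1 and 69.7 CPM at 24 h. Each time lay above the one before it with no overlap. On the TPM scale the 24 h libraries, at 38.36 and 13.9, stood on either side of the 24.45 to 26.08 of normoxia. The rise against 0 h was 0.52 at 6 h (SE 0.13, adjusted p = 0.00575), 0.90 at 12 h (SE 0.13, adjusted p = 0.000171) and 1.21 at 24 h (SE 0.15, adjusted p = 2.26e-05), and MLX was the only member called higher at 24 h than at 6 h (0.69, SE 0.15, adjusted p = 0.00276), with a value of 0.44 without 24 h replicate 1. The steps from 6 to 12 h (adjusted p = 0.116) and from 12 to 24 h (adjusted p = 0.139) were not called. It shares 18.21% of its exonic bases with PSMC3IP on the opposite strand.

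MGA (chr15:41621134-41773081, plus strand), the Polycomb-linked member, rose early and then fell. It was at 85.4, 78.2 and 85.2 CPM in normoxia, 208, 177 and 100.2 CPM at 6 h, 111, 179 and 164 CPM at 12 h and 70.3 and 52.7 CPM at 24 h. Every library at 6 and 12 h was above normoxia and both at 24 h were below it, with a wide spread at 6 h. MGA rose by 0.96 at 6 h (SE 0.25, adjusted p = 0.00587) and by 0.87 at 12 h (SE 0.25, adjusted p = 0.0112), a call lost without 12 h replicate 2 (0.70, adjusted p = 0.0565, with a range over the alternatives of 1.39e-06 to 0.284), and its 24 h value was -0.43 (SE 0.28, adjusted p = 0.196). It was lower at 24 h than at 6 h by 1.39 (SE 0.29, adjusted p = 0.00237) and than at 12 h by 1.30 (SE 0.29, adjusted p = 0.00706).

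Between hypoxic times, edgeR called 0 of the 10 genes between 6 and 12 h, where 4.95% of tested genes were called, although 4 (MAX, MXD4, MNT and MLX) had an unadjusted p under 0.05. DESeq2 called 3, limma-voom 0 and limma-voom with sample quality weights 5, and edgeR called 4 when either 24 h library was left out and 1 without 6 h replicate 3. The share of all genes called moved as well. It was 10.4% with DESeq2, 4.87% with limma-voom and 22.5% with quality weights. In edgeR it was 17.4% without either 24 h library and 5.05% without 6 h replicate 3. From 12 to 24 h 3 genes were called, all lower (MYCL, MNT and MGA), against 28.4% of all genes (15.1% higher and 13.3% lower), a count of 6 without 24 h replicate 1 and of 5 without 24 h replicate 2. Those omissions left 45.5% and 17% of all genes called. From 6 to 24 h 6 were called, MLX higher and MYC, MYCL, MAX, MNT and MGA lower, against 42.4%. From 6 to 24 h the members thus counted 1 higher and 5 lower, where 22.1% of tested genes were higher and 20.3% lower. limma-voom with sample quality weights called 2 of these 6, MNT and MGA, and a fit of the 6 and 24 h libraries alone called 3. Those fits called 12.7% and 22.1% of all genes. Ranges stood clear of each other for 4 members from 6 to 12 h (31.6% of all tested genes), for 7 members from 12 to 24 h (49.2%) and for 6 members from 6 to 24 h (53.3%).

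The change from 6 to 24 h also ran with transcript length over all genes. With genes in 5 equal bins by their longest annotated transcript, the median log2 fold change went from 0.54 in the bin of short transcripts to -0.50 in that of long ones. For 24 h against 0 h it went from 0.77 to -0.55. The 24 h values of the gene lists below are given without correction for length. MGA, whose longest transcript has 14568 bases, and MXD1, with 5580, lie in the bin of long transcripts. With an offset for length in the model, chosen after the data were seen, MGA was lower by 0.54 from 6 to 24 h with an adjusted p of 0.0912 (range over the alternatives 2.44e-10 to 0.0912) and its 24 h value against 0 h became 0.30. MXD1 was then called higher at 24 h (0.90, adjusted p = 0.000219), and MNT still fell at 24 h, by 0.61 (adjusted p = 0.0255). What length stood for was not tested.

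**Figure D3:**
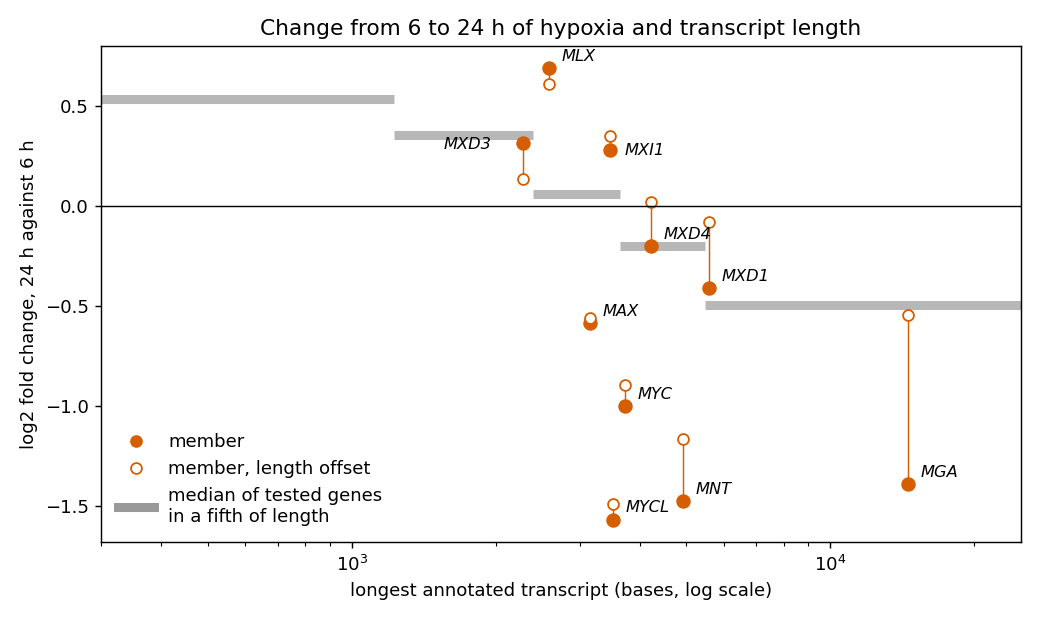
Log2 fold change from 6 to 24 h of hypoxia against the longest annotated transcript in bases on a log axis, with the outer bars running past its ends. Filled circles are the 10 members, open circles their values with the length offset and grey bars the medians of all tested genes in 5 equal bins of length, and MGA moves furthest with the offset, from -1.39 to -0.54.

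Activators and antagonists were then set beside each other within each library, as counts per exonic base. The ratio of MXI1 to MYC was 0.450, 0.587 and 0.481 in normoxic replicates 1 to 3, 0.567, 0.520 and 0.244 at 6 h and 0.473, 0.828 and 0.671 at 12 h. At 24 h it was 1.03 and 0.947, above every other library. The early ratios overlapped normoxia, since both genes rose, and the lowest of all was 6 h replicate 3, where MYC was highest.

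Summed over MXI1, MXD1, MXD3 and MXD4 and divided by the sum of MYC and MYCL, the ratio was 1.06, 1.28 and 1.09 in normoxia and 0.948, 1.00 and 0.491 at 6 h. It was 0.797, 1.31 and 1.03 at 12 h and 1.52 and 1.62 at 24 h. The 6 h libraries lay below normoxia, the 12 h libraries spanned it and the 24 h libraries lay above it. MXI1 made up 40.4% ± 1.32 (SD, n = 3) of the MXD sum in normoxia, 53.2% ± 5.14 (n = 3) at 6 h, 61.9% ± 2.83 (n = 3) at 12 h and 62.7% ± 6.93 (n = 2) at 24 h. No p-value is given for a ratio over chosen genes.

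MNT moved the other way relative to MYC. Its ratio to MYC was 0.259 ± 0.0173 in normoxia, 0.121 ± 0.0579 at 6 h, 0.101 ± 0.0249 at 12 h (SD, n = 3 each) and 0.0818 ± 0.0329 at 24 h (SD, n = 2), and no hypoxic library reached the normoxic values. The ratio of MGA to MYC was also lower on average, at 0.267 ± 0.0145 in normoxia and 0.182 ± 0.0937 at 6 h. It was 0.205 ± 0.08 at 12 h (SD, n = 3 each) and 0.124 ± 0.00212 at 24 h (SD, n = 2). In 12 h replicate 2 it was 0.284, equal to the highest normoxic value. MYC per MAX was 2.22 to 2.96 in normoxia, 2.69 to 5.32 at 6 h, 3.05 to 4.13 at 12 h and 3.45 and 2.21 at 24 h. MXI1 per MAX went from 1.30 to 1.33 in normoxia to 1.95 to 2.53 at 12 h and to 3.55 and 2.09 at 24 h, where the 12 h and 24 h libraries were all above normoxia.

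**Figure D4:**
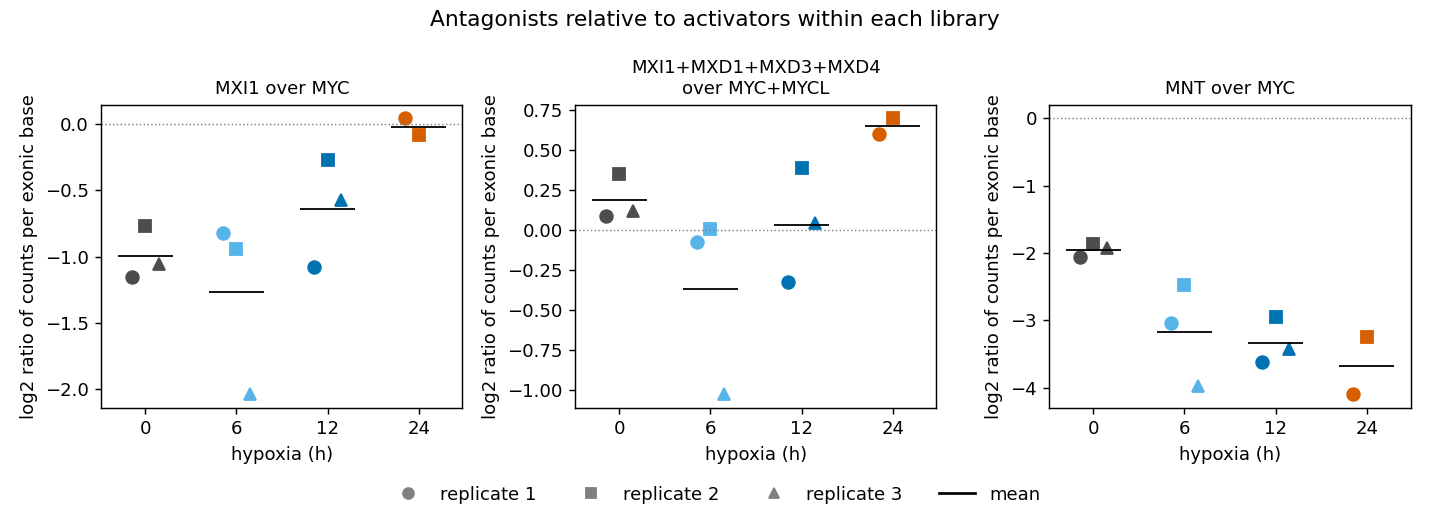
Log2 ratio of counts per exonic base within each library, antagonist over activator, against hours of hypoxia, with symbols for replicates and a line for the mean. The ratio of MXI1 to MYC rises from a mean of -0.99 at 0 h to -0.02 at 24 h and that of MNT to MYC falls from -1.95 to -3.67.

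Partners and neighbours of the network were read from lists chosen by function. Their counts stand beside 25.1% of all tested genes higher and 27.7% lower at 6 h, 24.2% and 27.1% at 12 h and 29.9% and 31.3% at 24 h. Of 7 other E-box factors and MYC binding proteins, 2 were higher and 1 lower at 6 h, 2 and 2 at 12 h and 2 and 3 at 24 h, with medians of -0.17, -0.04 and -0.31. Without either 24 h library the 6 h count was 2 higher and 3 lower, where 62.9% (without replicate 1) and 62.7% (without replicate 2) of all genes were called. USF1, a ubiquitous E-box activator, rose by 0.88, 0.83 and 0.79 at the 3 times, and MLXIPL, the carbohydrate-responsive partner of MLX, fell, with log2 fold changes of -1.85, -1.70 and -1.70. The other Mondo partner, MLXIP, had a value of -0.09 at 6 h (adjusted p = 0.684) and fell by 0.78 at 12 h (adjusted p = 0.00236) and by 1.61 at 24 h (adjusted p = 2.87e-05), the reverse of the rise of MLX. MYCN, the neural MYC paralogue, was near the floor with 5, 6 and 6 counts in normoxia, 0, 3 and 1 at 6 h and 13, 22 and 20 at 12 h. Its 24 h libraries held 53 and 2 counts and overlapped normoxia, although the difference was called (3.12, SE 0.79, adjusted p = 0.0045). MLXIP and MYCN were named after their values were seen.

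Of the 16 MYC cofactors, 6 were higher and 3 lower at 6 h, 6 and 1 at 12 h and 6 and 4 at 24 h, with medians of 0.23, 0.20 and 0.08. At these times 52.8%, 51.2% and 61.2% of all tested genes were called. PAF1, a subunit of the elongation complex PAF1C, rose by 1.24, 1.23 and 0.96, and ZBTB17 (MIZ1), the partner with which MYC represses genes, by 0.66, 1.09 and 0.90. The chromatin remodeller EP400 fell, with changes of -0.66, -0.91 and -1.93. Of 13 genes of MYC phosphorylation and turnover, 4 were higher and 0 lower at 6 h, 1 and 1 at 12 h and 1 and 3 at 24 h, with medians of 0.18, -0.06 and -0.05. These turnover counts, called in 4, 2 and 4 genes, changed when single libraries were left out, as did the calls over all genes. At 6 h 2 were called without 0 h replicate 2 or 3, 6 h replicate 1 or 2 or 12 h replicate 2, and 7 without either 24 h library. Without 24 h replicate 1, 6 were called at 12 h and 7 at 24 h, and without 24 h replicate 2, 7 and 8. The share of all genes called at 6 h was 44% to 50.6% in the fits with 2 calls. It was 62.9% and 62.7% without 24 h replicate 1 and 2. At 12 and 24 h it was 60.7% and 63.1% without 24 h replicate 1, and 60.4% and 55.6% without replicate 2. SET, an inhibitor of the phosphatase PP2A, rose at all times by 0.67, 0.64 and 0.75.

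Among the 11 SIN3 and histone deacetylase genes through which MXD and MNT proteins repress, 5 were higher and 0 lower at 6 h, 6 and 0 at 12 h and 5 and 2 at 24 h, with medians of 0.35, 0.32 and 0.28, where 25.1%, 24.2% and 29.9% of all tested genes were higher and 27.7%, 27.1% and 31.3% lower. Without either 24 h library 8 were higher at 6 h, where 62.9% (without replicate 1) and 62.7% (without replicate 2) of all genes were called. SAP30 rose by 1.62, 1.44 and 2.49 and SAP18 by 1.03, 1.19 and 1.86, both small subunits of the SIN3 complex, and the deacetylase HDAC2 by 0.95, 0.97 and 1.24. SIN3A, the scaffold, had a value of 0.43 (adjusted p = 0.0743) at 6 h, rose by 0.56 at 12 h (adjusted p = 0.0258) and had a value of -0.37 (adjusted p = 0.153) at 24 h. SIN3B, chosen with it after the values were seen, was not called at any time (adjusted p = 0.101, 0.217 and 0.188). Of 10 genes of the Polycomb complex that holds MGA and MAX, 4 were higher and 2 lower at 6 h, 3 and 2 at 12 h and 5 and 1 at 24 h, with medians of 0.21, 0.11 and 0.42. The 6, 5 and 6 genes called stand beside 52.8%, 51.2% and 61.2% of all tested genes, and at 24 h 3 were called without 0 h replicate 1 or without 24 h replicate 2. Those omissions left 54.8% and 55.6% of all genes called at 24 h. The ubiquitin ligase RNF2 rose by 0.89, 0.66 and 1.09, E2F6 by 0.99, 0.46 and 0.45 and RYBP by 0.34, 0.64 and 0.91, while RING1, the paralogue of RNF2, fell, with changes of -1.17, -0.90 and -0.63.

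Textbook targets of MYC were the last group. Of 24 genes that MYC activates, 15 were higher and 2 lower at 6 h, 16 and 2 at 12 h and 18 and 3 at 24 h, where 25.1%, 24.2% and 29.9% of all tested genes were higher and 27.7%, 27.1% and 31.3% lower. The median log2 fold change was 0.91, 0.94 and 1.04. From 6 to 24 h, when MYC fell, 8 of these targets were higher and 3 lower, where 22.1% of all tested genes were higher and 20.3% lower. A link between the changes of these targets and of MYC was not tested, and the values are not corrected for length. Nucleolin (NCL) rose by 1.55, 1.54 and 1.74, the nucleoside diphosphate kinase NME1 by 0.98, 1.22 and 2.25 and the nucleolar methyltransferase FBL by 0.98, 1.19 and 2.04, and the pyrimidine synthesis enzyme CAD fell, with changes of -0.64, -0.97 and -1.69. At 24 h the split depended on scaling, with 7 higher and 5 lower under library size alone, a scaling that put the median of all genes at -0.97. Of 8 genes that MYC represses, 3 were higher and 3 lower at 6 h, 3 and 2 at 12 h and 3 and 1 at 24 h, with medians of -0.09, 0.18 and 0.35, beside the same shares of all tested genes. NDRG1 and THBS1, of which NDRG1 is also induced by hypoxia, rose by 1.98, 2.55 and 2.41 and by 2.50, 2.02 and 1.19, while the cell cycle inhibitor CDKN2B fell, with changes of -0.80, -0.97 and -1.64.

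**Figure D5:**
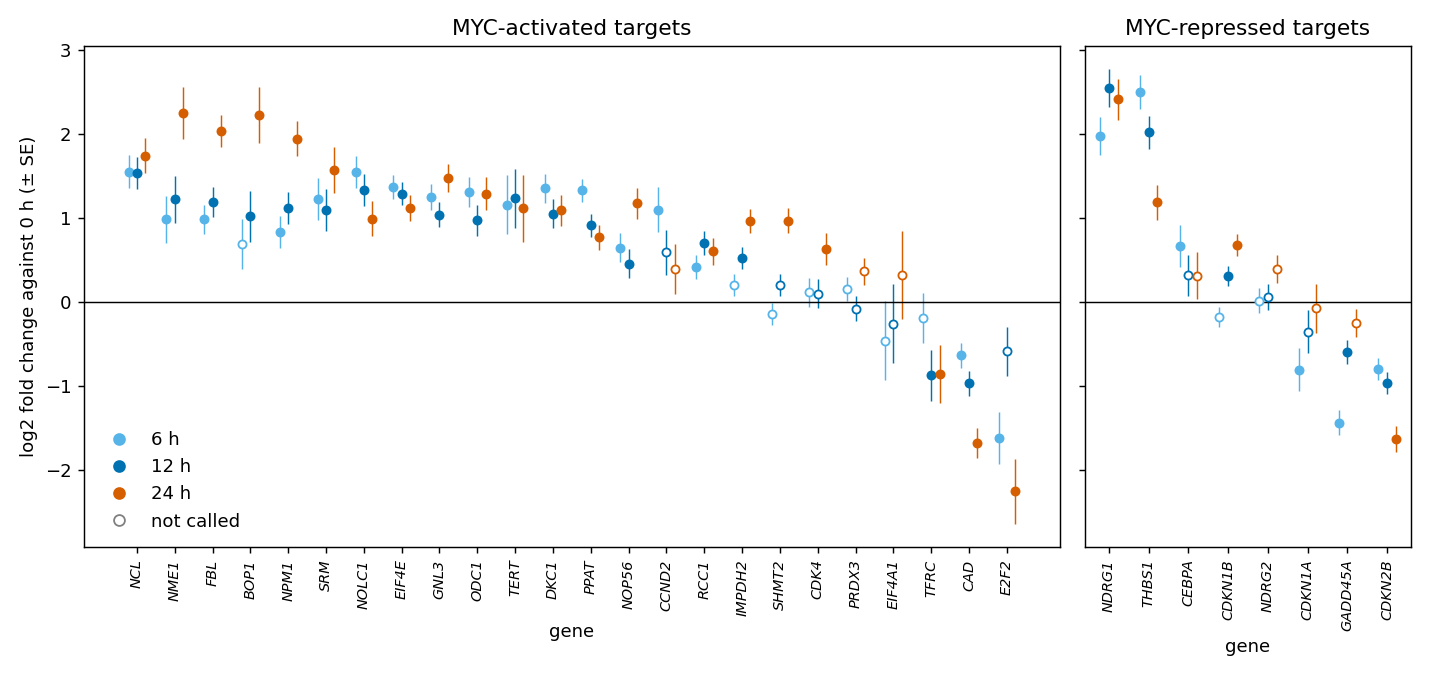
Log2 fold change against 0 h of the MYC-activated targets and the MYC-repressed targets at 6, 12 and 24 h, with bars of 1 SE and open symbols where a gene was not called. Most of the activated targets lie above 0, with medians of 0.91, 0.94 and 1.04, and CAD lies below it at every time.

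Both arrestin-related targets of MLX with its Mondo partners were higher at 6 h, and 1 of the 2 at 12 and 24 h, with medians of 2.96, 0.99 and 1.11. Of all tested genes, 25.1%, 24.2% and 29.9% were higher at 6, 12 and 24 h. ARRDC4 rose by 2.62, 1.80 and 2.16. TXNIP, an inhibitor of glucose uptake named after its values were seen, rose by 3.30 at 6 h (SE 0.24, adjusted p = 1.14e-06), and its values at 12 and 24 h were 0.17 (adjusted p = 0.556) and 0.07 (adjusted p = 0.832).

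Of 9025 tested genes with a symbol and a mean of at least 10 CPM, the 5 whose log2 fold changes at the 3 times were nearest to those of MYC were YWHAG, ST3GAL1, PER1, DCBLD2 and SFRP1. Their root mean square differences ran from 0.00991 for YWHAG, whose changes were 1.67, 1.31 and 0.69, to 0.0882 for SFRP1. Nearest to MXI1 were JUN (0.0710), HSPD1, DDIT4, PGAM5 and HSP90AB3P (0.0957). JUN, an AP-1 factor, changed by 1.43, 1.54 and 1.68 where MXI1 changed by 1.38, 1.66 and 1.66. HSP90AB3P is a pseudogene, and its reads may come from its parent gene.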

How the data were processed

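Bulk RNA libraries were prepared by the authors with a stranded kit, sequenced as single-end reads, trimmed, aligned to GRCh38 with STAR and counted per gene with featureCounts. The deposited values are raw counts per Ensembl gene. The strand setting of the counting and its treatment of multimapping reads are not given in the sources used here, so reads of overlapping antisense genes may be shared. The 11 columns were grouped by time point, and 0 columns were left out.

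The members and the 9 gene lists were chosen with earlier results of these data known. Genes were filtered with filterByExpr (minimum count 10, minimum total 15), which kept 19981, scaled with TMM and tested with edgeR 4.0.16 in R 4.3.3 (quasi-likelihood fit over all 11 libraries, time point only, biological coefficient of variation 19.6%). Benjamini-Hochberg adjustment ran over all tested genes in each of 6 comparisons, and no test was made over the members or lists as sets. The study's own method, limma-voom (limma 3.58.1), and DESeq2 1.42.0 were among the alternatives, as were other scalings and filters, a replicate block and each library left out. All 10 members are named, and from each list the 3 genes called at every time with the highest and the 3 with the lowest average log2 fold change. On simulated counts of 19120 genes, 200 were changed, each by the same fold at all hypoxic times and with the same spread at all times. There edgeR recovered 64 of 100 genes changed by 1 on the log2 scale and 96 of 100 changed by 2 at 6 h against 0 h. At 24 h against 0 h it recovered 55 and 92. In the data 52.8% of genes were called at 6 h, so these rates do not measure the power there. Symbols, exonic lengths and overlaps came from the GRCh38 reference annotation, and promoter sequences from RefSeq GRCh38.p14. Counts were 27496009 to 49488345 per library, and the 24 h estimates rest on 2 libraries.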

Additional observations from a re-analysis of the deposited data

Results flagged for a closer look

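Because each time was compared with the same normoxic libraries, the tests between hypoxic times show where the responses at those times differed. With edgeR's quasi-likelihood test and Benjamini-Hochberg adjustment, the response at 24 h was below that at 6 h by -1.0 on the log2 scale for MYC, -1.57 for MYCL, -0.59 for MAX, -1.48 for MNT and -1.39 for MGA, and above it by 0.69 for MLX. Against 12 h, the 24 h response was lower by -1.23 for MYCL, -0.96 for MNT and -1.30 for MGA. These 12 to 24 h calls rest on a spread shared with the other times, since a fit of those libraries alone called 0 of 17807 genes. The differences for MGA lost their calls with the transcript length offset, where they were -0.54 (adjusted p = 0.0912) and -0.58 (adjusted p = 0.0952). No group had 4 libraries, so single libraries could not be tested for standing apart.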

How the results depend on the processing

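Over 21 alternatives, 16 of the 35 called member results kept sign and call in every one, among them those of MXI1, MYCL and MXD3 at all 3 times against 0 h, of MYC and MAX at 6 and 12 h, of MXD4 at 6 h and of MNT at 24 h. Of 1260 values, 51 lost a call with the same sign, 45 gained one with the same sign and 35 changed sign, some of these losing a call as well. The 24 h results are limited by 2 unlike libraries, and MYCL and MYCN by low counts.

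Library size alone put the median of all genes at -0.32, -0.50 and -0.97 at 6, 12 and 24 h, and 16.4% of the 24 h calls over all genes were then higher, against 48.8% with TMM. It gave 6 members called at 6 h, 5 at 24 h and 5 for 24 h against 12 h, where 49.3%, 67.7% and 27.3% of all genes were called. Signs turned for MXD4 at 12 h (-0.0288), for MYC (-0.19), MAX (-0.35), MXD1 (-0.38) and MXD4 (-0.0987) at 24 h, for MXI1 (-0.39), MXD3 (-0.18), MXD4 (-0.0699) and MLX (-0.0993) between 12 and 24 h and for MXI1 (-0.26) and MXD3 (-0.41) between 6 and 24 h. These signs are relative to that shift of all genes.

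The length offset, chosen after the data were seen, turned MNT at 12 h (0.0740) and MGA at 24 h (0.30), and between hypoxic times MXD1 (0.0215) and MGA (0.0399) from 6 to 12 h and MXD4 (0.0211) from 6 to 24 h. limma-voom with sample quality weights called 5 members at 24 h, 5 for 12 h against 6 h, 1 for 24 h against 12 h and 2 for 24 h against 6 h, where 30.9% of all genes were called at 24 h against 61.2%. Its shares of all genes for the comparisons between hypoxic times, in the same order, were 22.5%, 5.47% and 12.7%. For 12 h against 6 h DESeq2 called 3 and edgeR with no filter on low counts called 1, beside 10.4% and 4.2% of all genes. Fitting only the 2 times compared, with fewer libraries for the spread, gave 2, 0 and 3 for 12 h against 6 h, 24 h against 12 h and 24 h against 6 h. That fit called 10.7%, 0% and 22.1% of all genes in these comparisons. MXI1 from 12 to 24 h, at 0.01, turned with limma-voom (-0.00549), with quality weights (-0.0768), with no filter (-0.0847), with at least 10 counts in every library (-0.0309), with only those times (-0.0183) and with the replicate block (-0.0338). Measured on the longest transcript, the 12 h ratio of MXD genes to MYC and MYCL on the log2 scale was -0.047 in place of 0.034, and that of MXI1 to MYC at 24 h was 0.0337 in place of -0.0185. The cause of these changes was not tested.

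Leaving out 1 library at a time, the members called numbered 9 to 10 (6 h against 0 h), 7 to 8 (12 h against 0 h), 6 to 8 (24 h against 0 h), 0 to 4 (12 h against 6 h), 2 to 6 (24 h against 12 h) and 6 to 8 (24 h against 6 h). The share of all genes called ran, in the same order, from 44% to 62.9%, 41.5% to 60.7% and 54.6% to 63.1%. Between hypoxic times it ran from 0.306% to 17.4%, 15.4% to 45.5% and 34.2% to 50.6%. Signs turned for MXD1 at 24 h (-0.0367 to 0.77), for MXD1 (-0.0683 to 0.0341), MXD3 (-0.29 to 0.11) and MGA (-0.35 to 0.13) from 6 to 12 h, for MXI1 (-0.30 to 0.22), MXD3 (-0.49 to 0.95) and MXD4 (-0.25 to 0.99) from 12 to 24 h, and for MXI1 (-0.0256 to 0.51), MXD3 (-0.57 to 0.86) and MXD4 (-0.96 to 0.27) from 6 to 24 h. The 12 h ratio of MXD genes to MYC and MYCL ranged from -0.14 to 0.21 and the 24 h ratio of MXI1 to MYC from -0.0787 to 0.0417.

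With the replicate number as a block, 9, 8 and 8 members were called at 6, 12 and 24 h against 0 h, and 0, 3 and 6 for 12 h against 6 h, 24 h against 12 h and 24 h against 6 h. Of all genes, in the same order, this fit called 50.7%, 49.1% and 57.7%, and 2.55%, 22.3% and 38.1%. Only MNT at 6 h lost its call (adjusted p = 0.0586). Deviations of same-numbered libraries had correlations of -0.156 to 0.207 over 15 pairs, of which 2 were over 0.1. Those of other numbers ran from -0.271 to 0.283, and 4 of 11 libraries correlated best with their own number. Deviations were taken from the mean of each time, which with 2 or 3 libraries makes them depend on each other. They therefore cannot decide whether the numbers pair the samples.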
